A study of Homo sapiens with 8 samples.

Results

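The Hsp70 and Hsp110 chaperone family was followed through 10 of its genes in MCF-10A, a human mammary epithelial cell line that does not form tumours. The members were fixed by name: HSPA8, HSPA9, HSPA4, HSPA4L, HSPA2, HSPA13, HSPA14, HSPA12A, HSPA12B and HSPH1, matched by Ensembl identifier to 10 of the 60617 genes of the count table. All 10 were among the 17693 genes tested. Poly(A)-selected RNA was sequenced from 2 derivatives of the line, named Empty and NeuT in the labels, which do not spell out what either carries or whether it is 1 clone. The series' design text speaks of transformed cells without naming which. Each was left untreated or given 1 µM JG-98, a small-molecule inhibitor of Hsp70, for 12 h, so that the 4 groups are untreated Empty, JG-98-treated Empty, untreated NeuT and JG-98-treated NeuT. Every group grew in the same medium with horse serum, epidermal growth factor, hydrocortisone, insulin and cholera toxin. There were 2 libraries per group. Nothing in the labels says that replicates came from separate cultures, so the p-values measure the spread between these libraries, which may be technical.

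Hsp70 proteins bind exposed hydrophobic stretches of unfolded proteins and release them in a cycle driven by ATP. J-domain proteins stimulate ATP hydrolysis and so lock the client in place, and nucleotide exchange factors, among them the Hsp110 proteins and the BAG proteins, reopen the chaperone. Heat shock factor HSF1 raises transcription of stress-inducible members when unfolded protein accumulates in the cytosol, through heat shock elements in their promoters.

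The promoter windows of 3 members are shown because these genes carry the main results below: HSPA8 is the most abundant, HSPH1 differed most between the lines among members called before treatment, and HSPA13 is the member that rose with JG-98. Sequences are from RefSeq (GRCh38.p14), run from 250 bases before to 50 bases after the annotated start site, and were held for 8 of the 10 members. Capitals mark a heat shock element of 3 units, searched on both strands as GAANNTTCNNGAA or TTCNNGAANNTTC, where N is any base.
HSPA8, chr11:123062087-123062386, minus strand: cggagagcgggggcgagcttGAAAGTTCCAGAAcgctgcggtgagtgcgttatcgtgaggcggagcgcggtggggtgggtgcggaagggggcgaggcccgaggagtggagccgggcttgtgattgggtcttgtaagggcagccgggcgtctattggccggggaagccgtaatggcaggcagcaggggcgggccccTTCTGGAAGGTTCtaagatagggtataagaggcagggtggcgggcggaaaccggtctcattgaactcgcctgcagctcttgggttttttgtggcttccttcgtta
HSPH1, chr13:31162339-31162638, minus strand: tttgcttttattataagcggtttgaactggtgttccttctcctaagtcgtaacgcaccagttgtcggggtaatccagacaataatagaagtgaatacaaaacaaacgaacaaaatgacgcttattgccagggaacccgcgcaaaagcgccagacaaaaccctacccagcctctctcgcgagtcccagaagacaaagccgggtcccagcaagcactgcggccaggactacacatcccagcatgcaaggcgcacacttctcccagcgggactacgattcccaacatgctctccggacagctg
HSPA13, chr21:14383097-14383396, minus strand: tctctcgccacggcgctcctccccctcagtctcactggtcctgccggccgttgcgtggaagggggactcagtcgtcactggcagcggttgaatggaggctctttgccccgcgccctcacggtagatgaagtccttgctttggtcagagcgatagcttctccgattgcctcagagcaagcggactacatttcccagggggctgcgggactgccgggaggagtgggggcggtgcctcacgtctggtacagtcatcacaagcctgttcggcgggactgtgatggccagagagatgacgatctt
The HSPA8 window held 2 matches, whose first bases lie at positions -230 and -55 from the start site. Among all 35116 windows of this length, 0.49% held at least 1 match and 0.0399% held 2 or more. No other window of a member held one. The ER stress element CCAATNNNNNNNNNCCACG, also searched on both strands, matched no member's window and 0.0769% of all windows. A match is only a run of letters, and its absence says only that these letters are not in this window.

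HSPA8 stood far above the other members followed here at the RNA level. HSPA1A, HSPA1B and HSPA5 were not part of this ranking. Within a gene, levels are given as CPM, counts scaled to library size with TMM factors. Between genes they are compared as CPM per kilobase of exon (CPM per kb). On this scale HSPA8, the constitutive cytosolic Hsp70, averaged 682 CPM per kb over the 8 libraries and ranked 33 of the 17693 tested genes. It made up 73.0% to 78.6% of the summed level of the 10 members in each library. HSPA9, the Hsp70 of the mitochondrial matrix, averaged 89.2 CPM per kb, and HSPA4, an Hsp110 protein, averaged 80.0 CPM per kb. These neighbours overlapped across libraries: HSPA9 was the higher in 6 of 8, and HSPA4 the higher in the untreated NeuT libraries. HSPH1, the Hsp110 protein also called Hsp105, followed at 28.2 CPM per kb, and its range overlapped with neither neighbour.

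The lower members formed a middle group and a low group. HSPA14, an Hsp70 bound to ribosomes together with the J-domain protein DNAJC2, averaged 8.82 CPM per kb. HSPA13, a short Hsp70 of the microsomes without a substrate-binding domain, averaged 8.33, and the Hsp110 gene HSPA4L 7.41. The ranges of HSPA14 and HSPA13 overlapped, as did those of HSPA13 and HSPA4L. HSPA2, an Hsp70 known for its role in male germ cells, averaged 1.36 CPM per kb, and HSPA12A, a distant family member, 0.880. HSPA12B, a distant member known from endothelium, averaged 0.0513 CPM per kb with 4 to 23 counts per library, against a floor of 3 counts. Of the fixed endothelial markers, PECAM1 was at 8.51 to 12.7 CPM in the group means, while the group means of CDH5 and VWF were at most 0.459 CPM. The fixed basal breast epithelial list holds KRT5, KRT14, KRT17 and TP63, and also CDH1 and EPCAM, which are not specific to basal cells. All 6 averaged at least 1 CPM, with a summed level of 15041 to 16458 CPM, and none of the 3 leukocyte markers did. Of the luminal markers 3 of 4 did, with a sum of 2583 to 3208 CPM, and of the fibroblast markers 1 of 4, with a sum of 5.33 to 6.51 CPM.

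**Figure D1:**
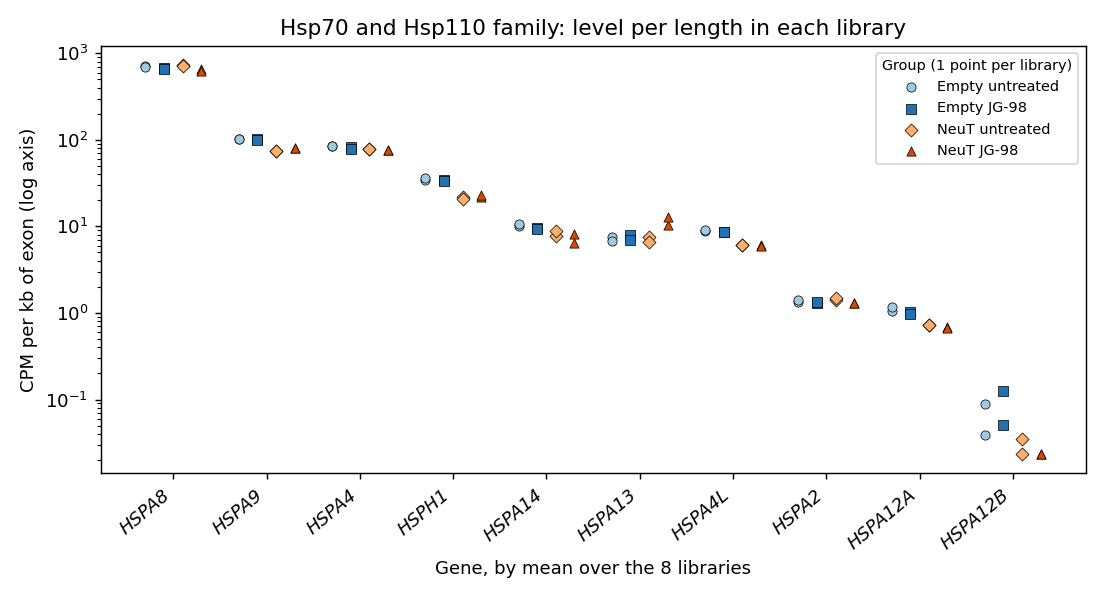
Level of each member in each library, in CPM per kb of exon on a log axis, with 1 point per library and genes ordered by their mean. HSPA8 lies between 620 and 726 CPM per kb in all libraries, and HSPA13 is highest in the 2 treated NeuT libraries. The NeuT points of HSPH1, HSPA9, HSPA4L, HSPA12A, HSPA14, HSPA4 and HSPA12B lie below the Empty ones. Of these, HSPA4 and HSPA12B were not called between the lines.

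Total counts per library ran from 55050996 to 56861971 except in JG-98-treated Empty replicate 1, which had 37341458. The JG-98-treated NeuT libraries stood furthest apart, with a chi-square per gene between replicates of 20.7 against 4.38 to 7.69 in the other groups. The members took 0.424% to 0.525% of all counts. The stress-inducible genes HSPA1A and HSPA1B and their neighbour HSPA1L had 1, 0 and 0 counts in total. They lie in a stretch of chromosome 6 where 74.2% of the 97 protein-coding genes within 1 Mb had 3 or fewer counts per library on average, against 30.4% elsewhere, so they are not read as unexpressed. Per the count table (GRCh38), HSPA8 lies at chr11:123057489-123063230, HSPH1 at chr13:31134974-31162388, HSPA9 at chr5:138553756-138575416 and HSPA13 at chr21:14371115-14383484, and all 4 are on the minus strand. HSPA4 lies at chr5:133052013-133106449 and HSPA4L at chr4:127781821-127840733, both on the plus strand. Counts cover the exons of each gene, UTRs included. Some members share sequence with other genes. Of the exonic bases of HSPA14, 12.7% overlap MSANTD7 or CDNF, and its level is uncertain to that extent. For HSPA4L 6.29% and for HSPA12A 6.02% of exonic bases overlap genes on the opposite strand. Because the strand setting is not given, their levels carry a like uncertainty. For HSPA8, 8.23% of stretches of 50 bases in its transcripts also occur in transcripts of other genes, mainly its pseudogenes, and none of 100 bases. The 17 pseudogenes named after HSPA8 together had 0.161% as many counts as HSPA8.

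The first question was whether the inhibitor changed the transcripts of the 10 members followed here. The stress-inducible genes HSPA1A and HSPA1B are not among them and could not be judged, because their region was hardly counted. In Empty cells no member was called, that is, none had an edgeR quasi-likelihood p-value under 0.05 after Benjamini-Hochberg adjustment over all genes tested. The call rate over all genes in that comparison was 0.339%. No member reached an unadjusted p under 0.05 with edgeR, against 9.83% of all genes, and no member was called with DESeq2. The members' median log2 fold change was -0.05, against -0.00 over all tested genes. In NeuT cells edgeR called 1 member, HSPA13, as higher and none as lower. Over all genes it called 3.01% in NeuT, 2.01% higher and 1.01% lower. DESeq2 called 2 members in NeuT, HSPA13 as higher and HSPA8 as lower (-0.18, DESeq2 adjusted p-value 0.0192). With edgeR, 3 members had an unadjusted p under 0.05 in NeuT, HSPA13 and HSPA9 with rises and HSPA8 with a fall. The members' median there was -0.07, against 0.00 over all tested genes.

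HSPA13 was at 31.0 and 28.1 CPM in untreated Empty and at 32.8 and 29.1 CPM in treated Empty. In NeuT it was at 31.7 and 27.2 CPM without the drug and at 43.3 and 53.7 CPM with it. Both treated NeuT libraries lay above the other 6 libraries, whose ranges overlapped. Its log2 fold change with JG-98 was 0.72 in NeuT (SE 0.11, 95% interval 0.49 to 0.95, edgeR adjusted p-value 0.00180). In Empty it was 0.06 (SE 0.11, 95% interval -0.17 to 0.29, edgeR adjusted p-value 0.912). Under the 15 alternatives for the NeuT change the adjusted p-value stayed at or below 0.0408. Without JG-98-treated NeuT replicate 1 the value was 0.87, and without replicate 2 of that group 0.55. Averaged over both lines HSPA13 was the only member called by edgeR (0.39, SE 0.076, edgeR adjusted p-value 0.00943), in a comparison that called 3.97% of all genes. DESeq2 also called HSPA8 there, as lower (-0.13, DESeq2 adjusted p-value 0.0143). The HSPA13 average did not pass without untreated Empty replicate 2 (log2 value 0.36), JG-98-treated Empty replicate 1 (0.35) or untreated NeuT replicate 2 (0.34). The authors' deposited table for NeuT gives HSPA13 a log2 fold change of 0.72 with an adjusted p-value of 0.00206.

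Whether the lines differed in this response was tested by the interaction of line and drug. For HSPA13 the difference of the log2 changes was 0.66 (SE 0.15, 95% interval 0.33 to 0.99), which did not pass (adjusted p-value 0.349 by edgeR, unadjusted 6.91e-04). No member was called in the interaction with edgeR, where the rate over all genes was 0.00565%, a single gene, TXNIP. At an unadjusted edgeR p under 0.05 there were 2 members, HSPA13 and HSPA9, against 7.79% of all genes, and DESeq2 called 1 member. The HSPA13 interaction passed with DESeq2 (adjusted p-value 0.0466), without the filter on low counts (5.37e-06) and without JG-98-treated NeuT replicate 1 (4.26e-04), over a range of adjusted p-values from 5.37e-06 to 0.931.

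HSPA8 did not rise in either line, and its estimates lay below 0. Its level was 3436 and 3372 CPM in untreated Empty and 3244 and 3205 CPM in treated Empty. In NeuT it was 3520 and 3466 CPM untreated and 3200 and 3004 CPM treated. In both lines the treated libraries lay below the untreated ones. The same held for HSPA4 and HSPA12A, which were not called with JG-98 either. The share of all genes whose libraries separate in this way was not computed. The log2 fold change was -0.08 in Empty (SE 0.050, 95% interval -0.18 to 0.03, edgeR adjusted p-value 0.662) and -0.17 in NeuT (SE 0.051, 95% interval -0.28 to -0.06, edgeR adjusted p-value 0.0821). Averaged over both lines it was -0.12 (SE 0.036, edgeR adjusted p-value 0.0623). In NeuT the HSPA8 change passed as lower with DESeq2 (0.0192), without the filter (0.0429) and without JG-98-treated NeuT replicate 1 (0.00144). The authors' deposited table for NeuT lists HSPA8 at -0.17 with an adjusted p-value of 0.0448. The HSPA8 average passed in 6 of its 14 alternatives, with adjusted p-values from 9.65e-04 to 0.271.

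The mitochondrial member went the other way in NeuT without passing the test. HSPA9 was at 587 CPM in each untreated NeuT library and at 640 and 648 CPM in the treated ones. In Empty it was at 810 and 806 CPM untreated and at 809 and 785 CPM treated. Only in NeuT were the treated libraries apart from the untreated ones. The log2 fold change was 0.13 in NeuT (SE 0.049, 95% interval 0.03 to 0.24, edgeR adjusted p-value 0.173) and -0.02 in Empty (SE 0.049, 95% interval -0.12 to 0.08, edgeR adjusted p-value 0.941), and the interaction was not called (0.16, SE 0.069, edgeR adjusted p-value 0.607).

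**Figure D2:**
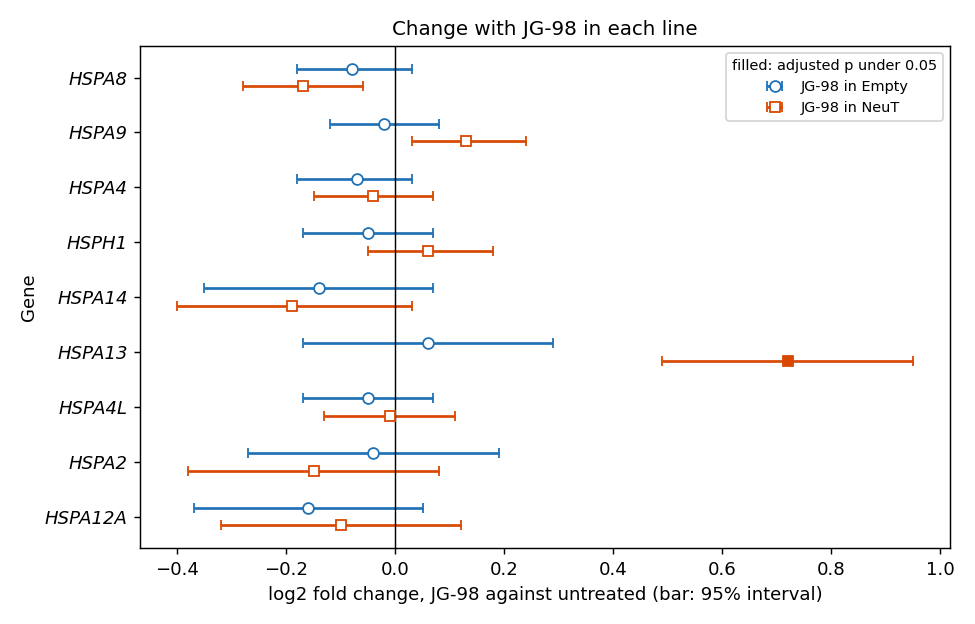
Log2 fold change of each member with JG-98 in Empty and in NeuT, with the 95% interval of the edgeR fit as bars and filled symbols for adjusted p-values under 0.05. Only HSPA13 in NeuT, at 0.72, is filled, and HSPA12B is left out because its intervals reach from -2.17 to 1.89.

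The Hsp110 genes, whose products act as nucleotide exchange factors of Hsp70, had narrow intervals around 0. HSPH1 had log2 fold changes with JG-98 of -0.05 in Empty (95% interval -0.17 to 0.07) and 0.06 in NeuT (-0.05 to 0.18). HSPA4 had -0.07 in Empty (-0.18 to 0.03) and -0.04 in NeuT (-0.15 to 0.07), and HSPA4L had -0.05 (-0.17 to 0.07) and -0.01 (-0.13 to 0.11). A change of these 3 genes beyond about a log2 value of 0.18 in either direction lay outside every one of the intervals. The remaining members were measured less precisely. HSPA14 had -0.14 in Empty and -0.19 in NeuT (95% intervals -0.35 to 0.07 and -0.40 to 0.03), HSPA12A had -0.16 and -0.10, and HSPA2 -0.04 and -0.15. HSPA14 was called as lower in NeuT only without JG-98-treated NeuT replicate 1 (-0.36, adjusted p-value 0.0169). The intervals of HSPA12B, from -0.89 to 1.89 in Empty and from -2.17 to 1.56 in NeuT, leave its change undetermined at this depth.

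The 2 lines differed in many genes before treatment, members of this family among them. In untreated cells 5 of the 10 members were called as lower in NeuT than in Empty and none as higher. Over all genes 42.0% were called in that comparison, 21.2% higher and 20.8% lower. The members' median log2 difference was -0.40, against -0.02 over all tested genes. Under JG-98 the same 5 members were called as lower and HSPA13 as higher, where 41.7% of all genes were called, 21.7% higher and 20.0% lower. When libraries were scaled by their totals alone, 40.7% of all calls in untreated cells and 41.0% of those under JG-98 were higher in NeuT, against 50.5% and 52.0% with TMM.

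HSPH1 showed the largest difference among the called members in untreated cells. It was at 285 and 302 CPM in untreated Empty and at 185 and 176 CPM in untreated NeuT, and with the drug at 290 and 277 CPM in Empty and 184 and 194 CPM in NeuT. All 4 Empty libraries lay above all 4 NeuT libraries. Its log2 value for NeuT against Empty was -0.70 (SE 0.056, edgeR adjusted p-value 2.79e-08) without and -0.58 (SE 0.056, edgeR adjusted p-value 2.55e-07) with JG-98. HSPA4L, its relative in the Hsp110 branch, was at 100 and 104 CPM in untreated Empty and at 69.7 and 69.1 CPM in untreated NeuT. Its log2 difference was -0.56 (SE 0.057, edgeR adjusted p-value 5.64e-07) in untreated cells and -0.52 (SE 0.058, edgeR adjusted p-value 1.40e-06) in treated ones. The third Hsp110 gene, HSPA4, at 428 and 436 CPM in untreated Empty and 398 and 401 CPM in untreated NeuT, was not called (log2 difference -0.11, SE 0.050, edgeR adjusted p-value 0.0803). It passed as lower with only the 4 libraries compared (0.00653) and with total counts (-0.18, 0.00664).

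**Figure D3:**
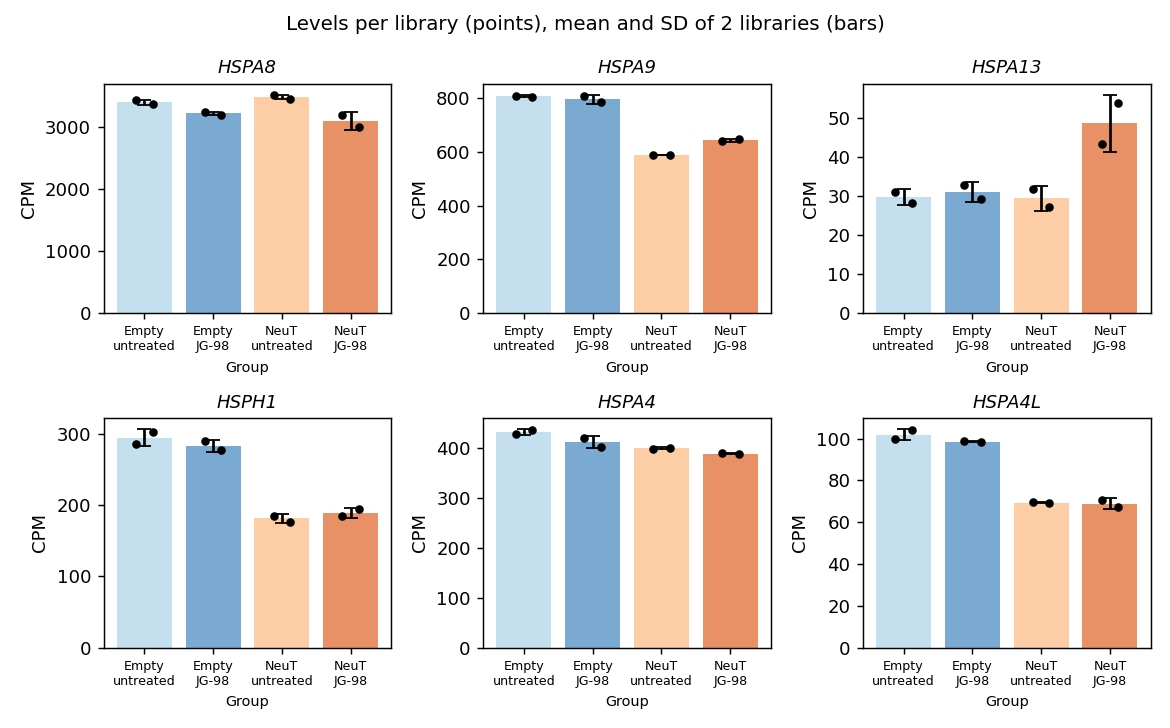
CPM of 6 members in the 4 groups, with points for the 2 libraries of a group and bars for their mean with the SD. HSPH1, HSPA9 and HSPA4L are lower in both NeuT groups, as is HSPA4 by less and without being called. HSPA13 is high only in treated NeuT, at 43.3 and 53.7 CPM.

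HSPA9 was also lower in NeuT, at the 587 CPM given above against 810 and 806 CPM in untreated Empty. The log2 difference was -0.46 without the drug (SE 0.049, edgeR adjusted p-value 8.02e-07) and -0.31 with it (SE 0.049, edgeR adjusted p-value 6.99e-05). HSPA12A was at 12.6 and 13.9 CPM in untreated Empty and at 8.59 and 8.57 CPM in untreated NeuT, which gave -0.62 on the log2 scale (SE 0.10, adjusted p-value 8.46e-05 by edgeR). Under JG-98 the value was -0.56 (SE 0.10, adjusted p-value 3.05e-04 by edgeR). HSPA14 was at 25.5 and 26.4 CPM in untreated Empty and at 19.3 and 22.0 CPM in untreated NeuT. Its log2 value was -0.33 (SE 0.099, adjusted p-value 0.0128 by edgeR), and the call depended on single libraries. It did not pass without untreated Empty replicate 2, at -0.31, or without untreated NeuT replicate 1, at -0.23. In treated cells its difference of -0.37 (edgeR adjusted p-value 0.00669) did not pass without JG-98-treated NeuT replicate 2 (0.0858).

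HSPA8, HSPA2 and, before treatment, HSPA13 were not called between the lines. HSPA8 had a log2 difference of 0.04 in untreated cells (95% interval -0.07 to 0.14), which was -0.03 with total counts, and of -0.06 under JG-98 (-0.16 to 0.05), which passed as lower only with total counts (-0.13, adjusted p-value 0.0449). HSPA2 was at 7.72 and 8.12 CPM in untreated Empty and 8.06 and 8.69 CPM in untreated NeuT, with overlapping libraries and a log2 difference of 0.08 (95% interval -0.14 to 0.31). HSPA13 had a log2 difference of -0.01 without the drug (95% interval -0.24 to 0.22) and 0.65 with it (SE 0.11, edgeR adjusted p-value 1.88e-04). HSPA12B had 7 and 16 counts in untreated Empty and 6 and 4 in untreated NeuT, with a difference of -1.11 that did not pass (adjusted p-value 0.261 by edgeR). Under JG-98 its counts were 6 and 23 in Empty and 4 and 4 in NeuT, with a difference of -1.92 (adjusted p-value 0.0540 by edgeR) that passed with total counts (0.0447) and without JG-98-treated Empty replicate 1 (0.0451).

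**Figure D4:**
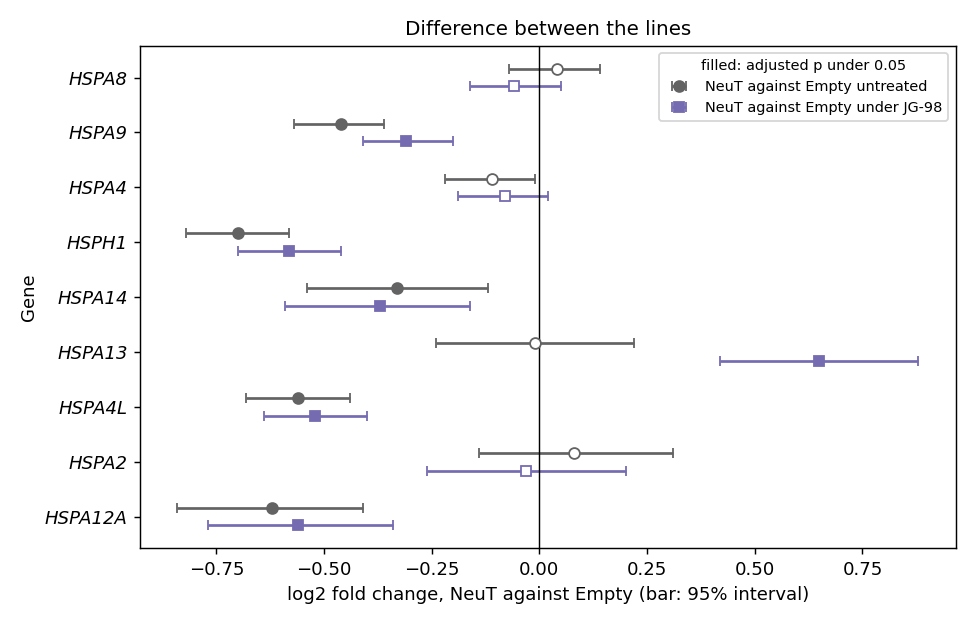
Log2 difference of each member between NeuT and Empty, without and with JG-98, with the 95% interval of the edgeR fit as bars and filled symbols for adjusted p-values under 0.05. HSPH1, HSPA9, HSPA14, HSPA4L and HSPA12A are filled below 0 in both comparisons, HSPA13 is filled above 0 under JG-98 only, and HSPA12B is not drawn.

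The line difference ran beside differences in proliferation genes and in epithelial markers. Between the untreated lines 42.0% of all genes were called, 21.2% higher and 20.8% lower. Under JG-98 the share was 41.7%, with 21.7% higher and 20.0% lower. All 10 genes of a proliferation list were called as lower in NeuT in both comparisons. Their summed level was 2200 to 2212 CPM in untreated Empty, 1967 to 2018 CPM in treated Empty, 952 to 960 CPM in untreated NeuT and 754 to 862 CPM in treated NeuT. CCNB1, a mitotic cyclin, had a log2 difference of -2.02 in untreated cells (SE 0.062, edgeR adjusted p-value 3.47e-13). With JG-98, 3 of the 10 were called as lower in NeuT (BIRC5, RRM2 and CCNB1) and none in Empty, where the shares over all genes were 3.01% in NeuT (1.01% lower) and 0.339% in Empty. Both counts moved with the processing. In Empty it was 4 without the low-count filter, with only the 4 libraries compared and without either JG-98-treated NeuT replicate, and 1 with DESeq2. In NeuT it was 7 without the filter, 6 with DESeq2, 5 with the replicate block, 0 with only the 4 libraries compared or without either untreated NeuT replicate, 7 without JG-98-treated NeuT replicate 1 and 1 without JG-98-treated NeuT replicate 2. Epithelial markers differed between the lines as well. Of the 6 markers on the basal list, CDH1 and EPCAM included, 3 were called as higher and 2 as lower in untreated NeuT. Under JG-98 3 were called each way. In untreated cells the log2 values were 1.45 for TP63, 0.54 for KRT5, 0.22 for CDH1, -0.35 for KRT17 and -1.07 for EPCAM. Of the 3 tested luminal markers 2 were called as higher in untreated NeuT, KRT18 at 0.51 and KRT8 at 0.17, and under JG-98 1 was called as higher and 1 as lower. The summed luminal level was 2583 to 2655 CPM in untreated Empty and 3077 to 3208 CPM in untreated NeuT, and with JG-98 2737 to 2738 CPM in Empty and 2824 to 2953 CPM in NeuT. Of the endothelial markers CDH5 was called as higher and PECAM1 as lower in NeuT in both comparisons. No tested fibroblast or leukocyte marker was called. The part of proliferation or of these markers in the lower level of the 5 members was not tested.

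Partners of Hsp70 were counted on lists that partly share genes. With JG-98 the share called over all genes was 0.339% in Empty and 3.01% in NeuT, and without JG-98-treated NeuT replicate 1 the calls over all genes in NeuT rose from 533 to 2133. Under JG-98 none of the tested genes on the lists of other Hsp70 genes, nucleotide exchange factors, J-domain proteins, Hsp90-linked proteins, mitochondrial partners and HSF1-related genes was called in Empty with edgeR, and DESeq2 likewise called none there. In NeuT the HSF1-related list had 1 call without JG-98-treated NeuT replicate 1 and 0 otherwise. In NeuT 1 gene, GRPEL2, was called as higher (0.42, SE 0.084, edgeR adjusted p-value 0.0108). GRPEL2 encodes a nucleotide exchange factor of mitochondrial Hsp70 and is on 2 lists, of which 1 of 10 tested nucleotide exchange factors (2 without JG-98-treated NeuT replicate 1) and 1 of 8 tested mitochondrial partners were called. In Empty it had 0.22 (SE 0.084, edgeR adjusted p-value 0.369), and each of the 2 lists had 1 call there without either JG-98-treated NeuT replicate. Neither list had a call in NeuT with only the 4 libraries compared, without either untreated NeuT replicate or without JG-98-treated NeuT replicate 2. In NeuT the medians were -0.08 for the nucleotide exchange factors, -0.02 for the J-domain proteins, -0.06 for the Hsp90-linked proteins, 0.03 for the mitochondrial partners and -0.03 for the HSF1-related genes.

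Between the untreated lines, where 42.0% of all genes were called (21.2% higher and 20.8% lower), the Hsp90-linked list held the most calls of the lists of Hsp70 partners. Of its 10 genes, 7 were called as lower in NeuT and 2 as higher, with a median of -0.41. HSP90AA1, a cytosolic Hsp90, had a log2 value of -0.84 (SE 0.054, adjusted p-value 1.48e-09 by edgeR). CHORDC1, an Hsp90 cochaperone, had -0.69 (SE 0.065, adjusted p-value 2.24e-07), and HSP90AB1, the other cytosolic Hsp90, had -0.55 (SE 0.049, adjusted p-value 9.35e-08). CDC37, the cochaperone that brings kinases to Hsp90, was higher by 0.36, as was the ubiquitin ligase gene STUB1 by 0.27. Of the 10 tested J-domain genes, 3 were called as lower and 3 as higher, DNAJC2 at -0.51 and DNAJB5 at 2.59 among them. The fall of DNAJC2, the ribosomal partner of HSPA14, had an SE of 0.071 and an edgeR adjusted p-value of 1.92e-05.

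For the lists that follow, too, the share over all genes between the untreated lines was 42.0%, 21.2% higher and 20.8% lower. Of the 8 tested mitochondrial partners, 3 were called as lower in untreated NeuT and none as higher, with a median of -0.18. With total counts and with only the 4 libraries compared 5 were called. The 3 were the chaperonin genes HSPD1 (-0.84) and HSPE1 (-0.66), and TIMM44 (-0.43), which tethers mitochondrial Hsp70 to the import channel. Of the 10 nucleotide exchange factors 2 were called, both as lower, BAG1 at -0.46 and BAG5 at -0.23, and BAG3 had a difference of 0.01. The list had 4 calls with total counts and with only the 4 libraries compared, and 1 without untreated NeuT replicate 2. Of the 10 HSF1-related genes 4 were called as lower and 2 as higher. The small heat shock protein genes CRYAB (-0.96) and HSPB1 (-0.94) led the falls, and HSF1 itself was higher by 0.26. Under JG-98, where 41.7% of all genes were called (21.7% higher and 20.0% lower), the calls between the lines, higher and lower, numbered 2 and 7 for the Hsp90-linked genes, 2 and 4 for the J-domain genes, 1 and 4 for the mitochondrial partners, 0 and 2 for the nucleotide exchange factors and 1 and 5 for the HSF1-related genes. The nucleotide exchange factors had 5 calls with total counts and 4 without JG-98-treated NeuT replicate 2, and the mitochondrial partners had 3 with only the 4 libraries compared or without JG-98-treated Empty replicate 2.

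Of the other Hsp70 genes, 3 of 6 could be tested. HSPA5, the ER chaperone BiP, was called in none of the comparisons and had log2 fold changes with JG-98 of -0.13 in Empty and -0.01 in NeuT. Between the untreated lines its log2 value was -0.14 (SE 0.059, adjusted p-value 0.0772 by edgeR), and it passed with total counts, with only the 4 libraries compared and without either JG-98-treated NeuT replicate. HYOU1, an ER relative of Hsp110, was called only between untreated lines, as lower in NeuT (-0.22, SE 0.070, edgeR adjusted p-value 0.0156). The list had 2 calls between the untreated lines, and 1 when any single untreated library was left out. Under JG-98 it had 1, and 2 without JG-98-treated NeuT replicate 2. For the JG-98 average it had 0, and 1 without JG-98-treated NeuT replicate 2, and for the interaction 0, and 1 without JG-98-treated NeuT replicate 1. HSPA6, a strictly stress-inducible Hsp70, averaged 0.492 ± 0.15 CPM in untreated Empty cells against 2.01 ± 0.26 CPM in untreated NeuT cells (SD, n = 2 each), and had 517 counts over all libraries. Its log2 difference was 2.02 (SE 0.30, edgeR adjusted p-value 3.82e-05) and under JG-98 1.41 (SE 0.30, edgeR adjusted p-value 0.00116). With the drug it had log2 fold changes of 0.35 in Empty and -0.26 in NeuT, neither of which was called (edgeR adjusted p-values 0.796 and 0.707).

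The genes whose log2 CPM over the 8 libraries ran most nearly in parallel with HSPA8 were ERGIC2 and UFD1 (Pearson r 0.968 each) and UBAP2L (0.961). For HSPH1 they were RBBP8 and THG1L (0.998 each) and KRT8P12 (0.997). These correlations were picked as the highest of 17693 genes over libraries that share 2 lines and 2 treatments, so they are a description only. RBBP8 was at 151 and 146 CPM in untreated and treated Empty and at 105 and 108 CPM in NeuT, the same split by line as HSPH1.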

How the data were processed

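RNA was measured in 8 libraries of poly(A)-selected RNA, in 4 groups of 2 set by the sample titles. The authors deposited raw counts per gene, laid out as featureCounts writes them per the file headers. Per the submitters' processing notes the tools were Trim Galore 0.5.0, FastQC 0.11.7, HISAT2 2.1.0, SAMtools 1.9, featureCounts 1.6.3 and limma, with build GRCh38. Strand setting, annotation release and treatment of multi-mapping reads are not given in the sources used here. The authors also deposited log2 fold changes with a test score, p-values and adjusted p-values per gene, per the file headers, of which the fold changes and adjusted p-values are quoted. Columns with no matching sample numbered 0.

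The deposited counts went into edgeR 4.0.16 (R 4.3.3): filterByExpr (minimum count 10, total 15), TMM factors and 1 robust quasi-likelihood fit of all 8 libraries with a coefficient per group. Benjamini-Hochberg adjustment covered all 17693 genes tested, and a gene was called under 0.05. Standard errors are each log2 change over the root of its F statistic, and intervals use the fit's degrees of freedom. An exact permutation test of 2 against 2 libraries cannot go below 0.333. A floor of 3 counts equals 0.0511 to 0.0787 CPM, for counting error only. The scripts were tested on simulated data.

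The members and lists were chosen with earlier results of these data known. All members were named, with list genes called with the largest changes, the whole list of other Hsp70 genes, and the 3 genes most correlated with HSPA8 and HSPH1 (log2 of CPM plus 0.5). Alternatives were RLE scaling, total counts, no filter, DESeq2 1.42.0, no robust estimation, a replicate block, only the 4 libraries compared, and leaving out each library. Replicate differences of the groups correlated at -0.102 to 0.246, so replicate numbers were not taken to pair libraries. Replicates differed beyond counting noise (chi-square per gene 4.38 to 20.7, highest in JG-98-treated NeuT) and each was counted as its own.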

Additional observations from a re-analysis of the deposited data

How the results depend on the processing

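Of the members' fold changes in the 6 comparisons, 828 values under the alternatives kept their direction and their side of the threshold, 20 newly passed, 6 no longer passed and 23 changed sign, all 23 without being called. The count of called members stayed at 0 for JG-98 in Empty under all 15 alternatives. For JG-98 in NeuT it was 2 in place of 1 without the low-count filter and with DESeq2, and 1 to 3 when single libraries were left out. Averaged over both lines it was 2 in place of 1 without the filter, with DESeq2, without robust estimation and with the replicate block, and 0 to 3 when single libraries were left out, with 0 without untreated Empty replicate 2, JG-98-treated Empty replicate 1 or untreated NeuT replicate 2. For the interaction it was 1 in place of 0 without the filter and with DESeq2, and 0 to 1 when single libraries were left out, with 1 without JG-98-treated NeuT replicate 1. Between the lines it ran from 4 to 6 (5 as reported) untreated and from 5 to 9 (6 as reported) under JG-98. The replicate block changed no other count of members by over 1.5 times. Where 1 library was left out, its lone partner was assumed to vary like the other groups.

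Over all genes, leaving out 1 library moved the calls from 60 to between 9 (without JG-98-treated Empty replicate 1) and 417 for JG-98 in Empty, from 533 to between 132 (without untreated NeuT replicate 1) and 2133 in NeuT, from 702 to between 259 (without untreated NeuT replicate 2) and 1934 for the average, and from 1 to between 1 and 777 for the interaction. All 4 highest counts were without JG-98-treated NeuT replicate 1. Without the filter these counts were 282, 1000, 1142 and 138. DESeq2 gave 146 for Empty and 19 for the interaction, only the 4 libraries compared gave 205 in Empty and 185 in NeuT, total counts gave 2 and no robust estimation 3 for the interaction. The cause was not tested.

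Values that changed sign were called in neither setting. Between untreated lines HSPA13 was 0.00 with RLE scaling and with DESeq2, and HSPA8 was -0.03 with total counts. With single libraries left out, HSPA13 ran from -0.11 to 0.12 between untreated lines and from -0.03 to 0.15 for JG-98 in Empty. HSPA12B ran from -0.36 to 1.19 in Empty, from -0.33 to 0.44 in the average and from -1.49 to 0.05 in the interaction. HSPA4L ran from -0.05 to 0.02 in NeuT and from -0.00 to 0.06 in the interaction, HSPH1 from -0.02 to 0.03 in the average, and HSPA14 from -0.22 to 0.10 and HSPA12A from -0.01 to 0.14 in the interaction. Depth limits HSPA12B most, at 4 to 23 counts per library.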

Other observations

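The level of the Hsp110 genes relative to HSPA8 was computed after their values were seen. The summed level of HSPH1, HSPA4 and HSPA4L, per length, was 17.9% and 18.8% of that of HSPA8 in untreated Empty and 18.7% and 18.3% in treated Empty. It was 14.6% and 14.8% in untreated NeuT and 15.8% and 17.0% in treated NeuT. All 4 NeuT libraries lay below all 4 Empty libraries, and the treated NeuT libraries lay above the untreated ones. In NeuT the Hsp110 sum itself did not rise, at 106 and 106 CPM per kb untreated and 104 and 105 treated. HSPA8 was at 726 and 715 CPM per kb untreated and at 660 and 620 treated. The ratio does not depend on library scaling, and no test was run on it.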
